A study of Arabidopsis thaliana with 29 samples.

Results

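The response described here is the change in transcript level after methyl jasmonate (MeJA) in Arabidopsis thaliana seedlings with buffered cytosolic Ca2+. These seedlings, named PV-NES, were of the Col-0 ecotype and carried a transgene for parvalbumin, a Ca2+-binding protein, joined to a nuclear export signal that keeps it in the cytosol. The comparison used the 3 PV-NES arrays labelled as treated with 50 µM MeJA and the 3 PV-NES control arrays, 6 of the 29 arrays of the series. They stand for the independent transgenic lines 1, 7 and 11, each with 1 array per treatment, so that the spread between replicates is the spread between lines. Seeds spent 3 days in the cold, seedlings then grew for 3 days and stayed a further 5 days on plates with or without hormone, under a cycle of 16 h light and 8 h dark (22 °C). The promoter that drives the parvalbumin transgene is not given in the sources used here, no Ca2+ was measured on these arrays, and the transgene's own transcript was not analysed here. Wild type (WT), with 1 MeJA and 2 control arrays, and PV-NLS, the lines 4, 5 and 8 in which parvalbumin carries a nuclear localisation signal, with 3 and 3 arrays, serve below for comparison. Other seedlings of the 3 genotypes were treated with 10 µM abscisic acid (ABA) or with 1 µM ACC, the ethylene precursor. Their arrays enter the variance estimate of the fit, and those of PV-NES also serve for comparison. No line with an empty vector was among the samples used here.

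Jasmonates are lipid-derived hormones made from chloroplast fatty acids after wounding, herbivory and attack by some fungi. In the plant the active form, a conjugate of jasmonic acid (JA) with isoleucine, brings the receptor COI1 and the JAZ repressors together, and the loss of JAZ proteins frees transcription factors such as MYC2, MYC3 and MYC4. The genes switched on include those for antimicrobial proteins, glucosinolates and anthocyanins and for the breakdown of the hormone itself, while growth and photosynthesis genes are often lowered, and cytosolic Ca2+ rises early in jasmonate signalling. The study asked how buffering Ca2+ in the cytosol or nucleus alters such hormone responses.

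Each value below is a log2 signal of 1 probe set on an ATH1 array, so that a difference of 1 is a 2-fold change. A gene was called when its fold change exceeded 2 and its adjusted p from limma was under 0.05. Of 22588 genes and unnamed probe sets tested, 547 were called higher after MeJA (2.42%) and 546 lower (2.42%), while the median log2 fold change over all of them was 0.03. The MeJA and control arrays did not overlap for 542 of the 547 (21.5% of everything tested was higher without overlap) and for 535 of the 546 (18.9% lower without overlap). Rises were larger than falls. The median log2 fold change of the raised genes was 1.63, and 85 of them passed a log2 fold change of 3 and 12 passed 5. For the lowered genes the median was -1.27, with 4 past -3 and 1 past -4. A single gene was named for 241 of the raised and 275 of the lowered entries, and the text below concerns these. For 271 of the raised genes (49.5%) the control mean lay below the median of every array (5.27 to 5.41), as it did for 49.2% of everything tested, and at such low signals the size of a fold is uncertain because detection calls were not used. Whole seedlings were used, so fewer cells of a type cannot be told apart from less RNA per cell.

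**Figure D1:**
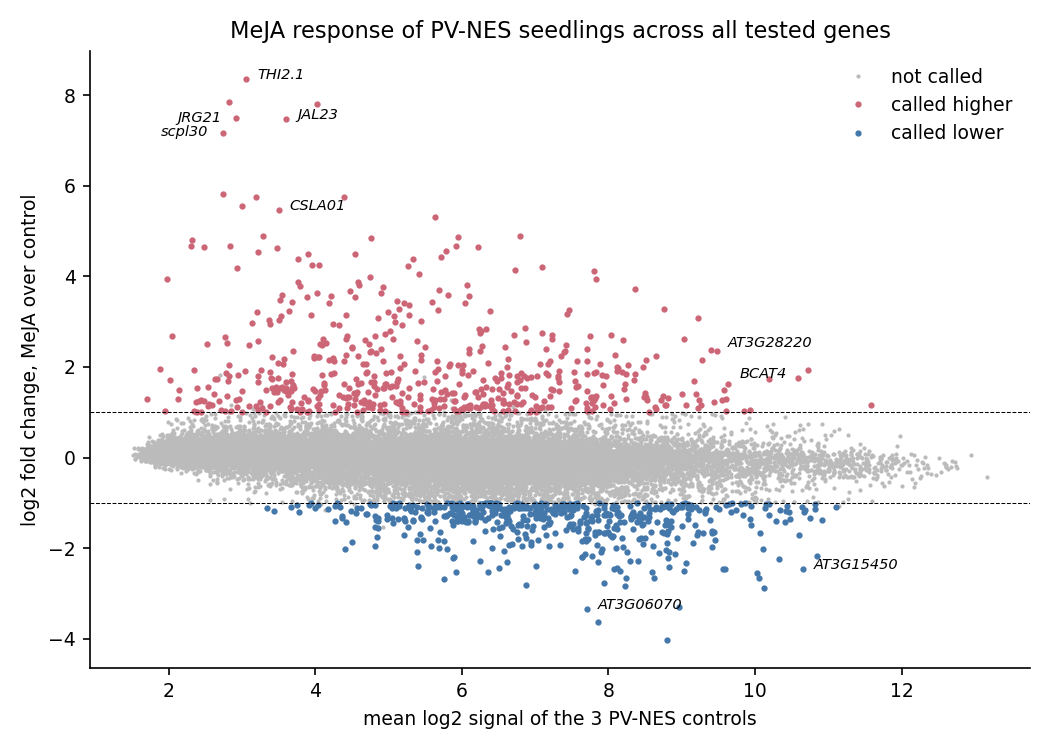
Log2 fold change of MeJA over control in PV-NES (vertical axis) against the mean log2 signal of the 3 controls (horizontal axis) for every gene or probe set tested. Dashed lines mark a 2-fold change, red points are the 547 called higher and blue points the 546 called lower, and the 5 largest rises of named genes start from controls with a log2 signal below 4.

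The largest rise of a named gene was that of THI2.1, which encodes a thionin, a small antimicrobial peptide. Its log2 signal was 2.91, 3.09 and 3.18 in the controls of lines 1, 7 and 11 and 11.23, 11.61 and 11.42 after MeJA. All 3 lines thus went from a dim to a bright signal, a log2 fold change of 8.36 (SE 0.23, adjusted p = 1.09e-17) or 329-fold. JAL23, a jacalin-related lectin, read 3.34, 3.84 and 3.63 in the controls and 11.11, 11.18 and 10.97 after MeJA (log2 fold change 7.48). The serine carboxypeptidase-like gene scpl30 read 2.81, 2.70 and 2.71 in the controls against 9.84, 9.61 and 10.31, a log2 fold change of 7.18 (SE 0.18, adjusted p = 1.55e-18). For these 3 genes the lines differed from each other by far less than the treatment moved them. AT1G54020, to which the annotation used here gives no name, rose by 7.85. Among unnamed probe sets the largest change was a rise of 7.81, from 4.04, 4.16 and 3.87 to 11.92, 12.04 and 11.53.

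**Figure D2:**
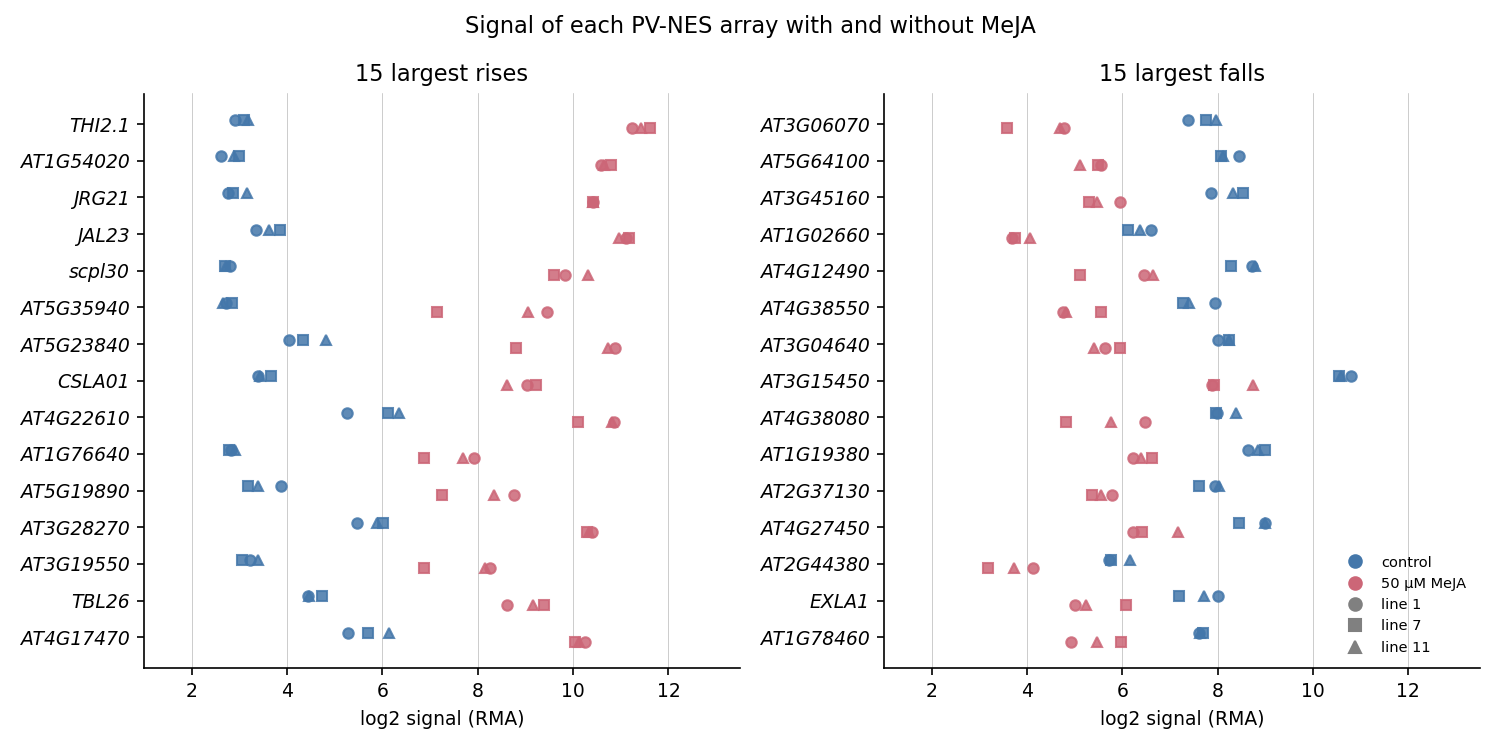
Log2 signal (horizontal axis) of each of the 6 PV-NES arrays for the 15 named genes with the largest rises and the 15 with the largest falls, among called genes whose arrays do not overlap. Blue symbols are controls, red symbols MeJA, and circles, squares and triangles are lines 1, 7 and 11. THI2.1 goes from about 3 to above 11 in every line, and AT3G06070 falls from 7.37 to 7.97 in the controls to 3.59 to 4.78.

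Genes that inactivate the hormone were called higher in all 4 measured cases (100%, against 2.42% of everything tested). The JA turnover list holds 10 genes, so most of it was not analysed here. The 4 are oxygenases of the 2-oxoglutarate and Fe(II) dependent kind, which hydroxylate JA and so end its signal. JRG21 read 2.75, 2.86 and 3.15 in the controls and 10.42, 10.41 and 10.42 after MeJA. The treated lines were nearly identical, and the log2 fold change was 7.50 (SE 0.25, adjusted p = 3.60e-16), or 180-fold. AT5G05600 read 6.0, 5.92 and 6.30 against 9.92, 9.72 and 10.01 (log2 fold change 3.81). AT3G11180 rose from 2.56, 2.59 and 2.42 to 4.87, 4.70 and 5.52, which is 2.50. AT2G38240 rose least, from 3.67, 3.72 and 3.75 to 4.72, 5.78 and 5.24 (1.53). In each of the 4 the MeJA arrays lay above all controls, as for 21.5% of everything tested. This held for 542 of the 547 raised genes, so it adds little to the call. The median of the list was 3.16 against 0.03 for all genes.

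Of 3 measured JA biosynthesis genes, JMT was called higher (33.3%, against 2.42% of everything tested). The list holds 18 genes, so most steps of the pathway were not analysed here. JMT encodes the methyltransferase that makes MeJA from JA, and its log2 signal was 3.78, 3.73 and 3.57 in the controls and 5.19, 5.21 and 5.50 after MeJA (1.61, SE 0.17, adjusted p = 2.51e-07). The treated values lay above all controls by more than 1. OPCL1, the ligase that activates JA precursors before their chain is shortened, read 6.83, 6.76 and 6.88 against 7.64, 7.73 and 7.68. Its log2 fold change of 0.86 (adjusted p = 2.60e-04) stayed under 2-fold. The lipase gene DGL had 0.10. Of the perception list only the transcription factors MYC3 and MYC4 were measured under a name, and neither passed the 2-fold threshold. MYC4 had a log2 fold change of 0.59 (adjusted p = 0.0194) and MYC3 of 0.09. The JAZ repressors and the lipoxygenases had no probe set that names 1 of them alone and were not analysed here.

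Genes on the list of JA-inducible defence proteins moved in both directions. Of 6 measured, from 17 listed, 3 were called higher and 1 lower. These are 50.0% and 16.7%, against 2.42% each way over everything tested. Beside THI2.1 and JAL23, the beta-glucosidase BGLU46 was called higher, from 3.24, 3.27 and 3.23 to 4.66, 4.26 and 4.51 (1.23), while the sister thionin THI2.2 was called lower. THI2.2 read 7.68, 7.78 and 7.99 in the controls and 6.07, 5.62 and 6.62 after MeJA (-1.71, SE 0.32, adjusted p = 3.69e-04). The 2 thionin genes therefore moved in opposite directions in every line. The plant defensins PDF1.2 and PDF1.2b, antifungal peptides induced by jasmonate together with ethylene, did not pass the test. PDF1.2 read 2.70, 2.66 and 2.75 in the controls and 3.83, 3.72 and 6.01 after MeJA (1.82, adjusted p = 0.167). PDF1.2b read 5.57, 5.51 and 5.38 against 6.22, 7.23 and 8.35 (1.78, adjusted p = 0.141). For both genes every treated line lay above all controls, as for 21.5% of everything tested. Line 11 was highest and the treated lines were spread over more than 2 units. The shared variance of the fit takes in all 12 groups, and with the 6 PV-NES arrays fitted alone both were called (adjusted p = 0.0308 and 0.0159). Over the wider family of thionins and defensins, of 15 measured members 1 was called higher and 3 lower. These are 6.67% and 20.0%, against 2.42% each way over everything tested. PDF2.1, a defensin of the other subfamily, read 8.44, 8.83 and 8.80 in the controls and 6.39, 7.25 and 6.11 after MeJA (-2.10, adjusted p = 8.47e-07). LCR68, also of the defensin family, had -1.02. It was under 2-fold without line 7 (-0.86) and without the control of line 11 (-0.999).

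Among jacalin-related lectins, a family of sugar-binding proteins, 2 of 4 were called higher and all 4 had positive values. The called share was 50.0%, against 2.42% of everything tested. Beside JAL23, JAL22 rose from 8.85, 9.45 and 9.51 to 10.36, 10.33 and 10.56 (1.15, and 0.97 without line 1, under the 2-fold threshold). JAL33 and JAL34 had 0.89 and 0.56, and JAL33 passed 2-fold without the control of line 11 (1.03). NAI2, which organises endoplasmic reticulum bodies and was chosen after its values were seen, read 8.79, 8.74 and 8.77 against 10.36, 9.32 and 10.10 (1.16). Its rise was 0.96 without line 1. PYK10, the main beta-glucosidase of these bodies, had 0.26 (adjusted p = 0.0950) and was bright in all 6 arrays, between 11.87 and 12.30.

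All 6 measured flavonoid and anthocyanin genes were called higher (100%, against 2.42% of everything tested), with a median log2 fold change of 1.77. The list holds 20 genes, so most of it was not analysed here. DFR, the reductase that commits flavonoids to anthocyanins, read 8.10, 8.14 and 7.66 in the controls and 9.58, 10.20 and 9.49 after MeJA (1.79, SE 0.34, adjusted p = 3.47e-04). UF3GT, which adds xylose to anthocyanins, rose from 6.86, 6.85 and 6.16 to 8.58, 9.36 and 8.49 (2.19). AT4G14090, on the list as an anthocyanin glucosyltransferase, rose from 6.42, 6.23 and 5.65 to 8.22, 9.06 and 8.19 (2.39). In these 3 genes line 7 was highest after MeJA and line 11 lowest. AT5MAT, which malonylates anthocyanins, read 5.16, 4.93 and 4.78 against 6.54, 7.05 and 6.17 (1.63). The flavonol glycosyltransferases UGT78D1 and UGT78D2 rose by 1.76 and 1.32, the first from 6.76, 7.0 and 6.88 to 8.71, 8.68 and 8.53 with the narrowest spread of the group (SE 0.11, adjusted p = 2.45e-11). After MeJA line 7 was highest in 5 of the 6 genes, with UGT78D1 the exception. The 6 genes also rose past the thresholds in WT and in PV-NLS.

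Of 4 measured glucosinolate synthesis genes, from 31 listed, 2 were called higher (50.0%, against 2.42% of everything tested). Glucosinolates are sulphur-rich defence compounds of Brassicaceae made from methionine or tryptophan. BCAT4, the aminotransferase that starts the lengthening of the methionine chain, was already bright at 9.40, 9.63 and 9.86 and reached 11.50, 10.93 and 11.32 (1.62, SE 0.17, adjusted p = 1.88e-07). UGT74B1, a glucosyltransferase late in the pathway, went from 7.58, 7.57 and 7.51 to 9.09, 9.09 and 9.18 (1.56). AT2G31790, on the same list, had 0.85 and GSTU20 had 0.29, both under the 2-fold threshold. AT2G04400, the only measured member of the tryptophan synthesis list, rose from 8.41, 8.34 and 8.31 to 10.32, 9.93 and 9.97 (1.72, SE 0.13, adjusted p = 8.89e-10). Sulphate assimilation, which feeds these compounds, had 0 of 2 called, with APS3 at 0.57 (adjusted p = 0.0218) and the sulphite reductase SIR at 0.29. HL, a HAL2-like gene chosen after its values were seen, rose from 9.18, 8.99 and 9.01 to 10.31, 10.20 and 10.14 (1.15).

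Methionine sulfoxide reductases, which repair oxidised methionine in proteins, were a family added after the data were seen. Of 5 measured, 3 were called higher (60.0%, against 2.42% of everything tested), with a family median of 1.04. MSRB9 read 7.69, 7.51 and 7.93 in the controls and 10.50, 9.45 and 10.35 after MeJA (2.39, SE 0.32, adjusted p = 6.51e-06). MSRB6 read 7.12, 7.66 and 7.85 against 9.35, 7.68 and 9.33. In line 7 it moved by 0.02, and without line 1 the rise was 0.75 (adjusted p = 0.202), so that its call depended on single lines. MSRB5 rose from 9.39, 9.85 and 9.56 to 10.73, 10.69 and 10.49 (1.04, and 0.89 without line 1). MSRB6 and MSRB5 are neighbouring genes of close sequence, and how far their probes respond to each other was not tested. MSRB3 and MSRA5 had 0.39 and 0.05.

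Enzymes of secondary metabolism were raised in part of each family while the family medians stayed near that of all genes. Of 51 UDP-glycosyltransferases, which attach sugars to hormones and secondary metabolites, 10 were called higher and 1 lower (19.6% and 1.96%, against 2.42% each way over all genes). Their median was 0.11. UGT76B1, which glucosylates small acids that regulate defence, rose from 7.33, 7.37 and 7.24 to 9.18, 9.27 and 8.91 (1.81). UGT71B5 and UGT76E2 rose by 1.88 and 1.74, and UGT88A1 fell by 1.06. Without line 1 the fall was by 0.96 and without line 11 by 0.998, both under 2-fold. Of 22 cytochromes P450, 3 were called higher (13.6%) and 0 lower. Falls under 2-fold that passed the adjusted p included that of CYP71B29 (-0.91, adjusted p = 9.27e-06). CYP71B37 went from 3.42, 3.50 and 4.12 to 5.52, 5.42 and 5.62 (1.84), CYP51G2 rose by 1.39 and CYP71B36 by 1.01, and the last of these lost its call without line 7 (0.93) or line 11 (0.90). Of 14 glutathione S-transferases, GSTU26 alone was called, from 5.06, 5.08 and 5.69 to 9.31, 7.66 and 8.98 (3.38, SE 0.34). GSTU25 had 0.95, with 1.11 and a call without line 7 and 1.18 and a call without line 11.

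Of 22 beta-glucosidases, which release active compounds from sugar conjugates, 4 were called higher and 1 lower. These are 18.2% and 4.55%, against 2.42% each way over everything tested. BGLU24 read 3.01, 2.70 and 2.60 in the controls and 5.54, 4.94 and 5.82 after MeJA (2.66). BGLU28 read 6.14, 5.33 and 4.68 against 8.49, 8.24 and 7.13, a rise of 2.57 that held in each line although the controls were spread over more than 1 unit. BGLU25 and BGLU46 rose by 1.36 and 1.23, and BGLU47 fell by 1.09 (by 0.97 without line 7). BGLU24 also rose after ABA in the same lines (3.36), whereas BGLU28 had -1.12 after ABA and -1.06 after ACC. The hormone comparisons share their control arrays.

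**Figure D3:**
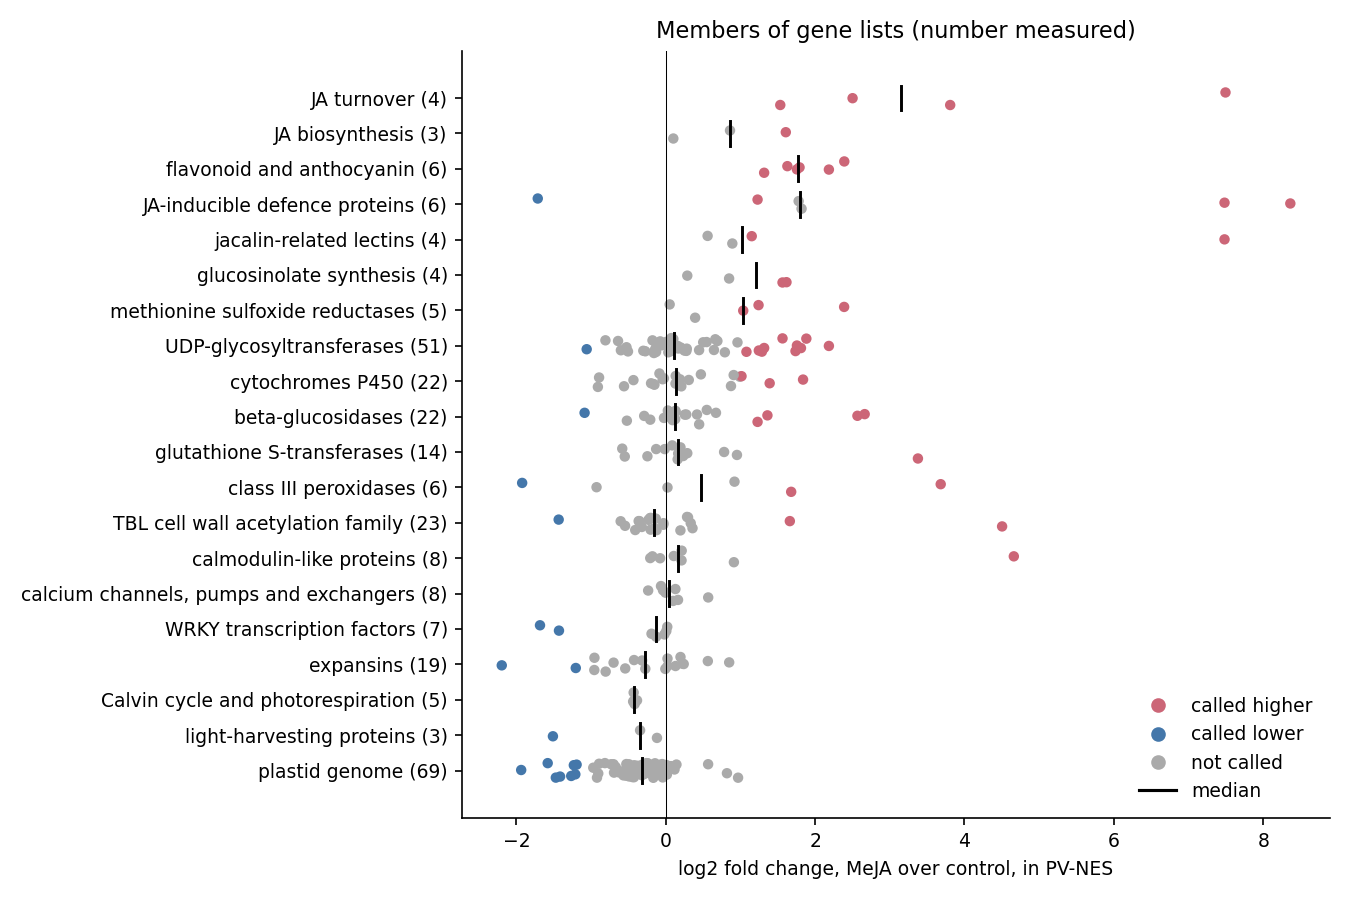
Log2 fold change of MeJA over control in PV-NES (horizontal axis) for each measured member of 20 gene lists, with the number measured in brackets. Red points were called higher, blue points called lower and grey points not called, and black bars are list medians, which run from 3.16 for JA turnover to -0.42 for the Calvin cycle and photorespiration.

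The transgene binds Ca2+, and genes for Ca2+ sensors and transporters were examined as lists of their own. Of 8 calmodulin-like proteins, Ca2+ sensors with EF hands, CML39 was called (12.5%, against 2.42% of everything tested). CML39 (AT1G76640) read 2.81, 2.78 and 2.90 in the controls and 7.92, 6.87 and 7.69 after MeJA (4.66, SE 0.20, adjusted p = 3.61e-14). In WT and PV-NLS its log2 fold changes were 5.26 and 5.02. The differences between genotypes did not pass the threshold, for CML39 or for any other gene tested with all arrays. CML43 read 4.61, 4.88 and 4.91 against 5.90, 5.18 and 6.08 (0.91), and 1.22 with a call without line 7. The family median was 0.16. The list of Ca2+ channels, pumps and exchangers had 8 measured members, all of them glutamate receptor-like channels, so pumps and exchangers were not analysed here. None of the 8 was called by limma at adjusted p under 0.05 and 2-fold, and their median was 0.05. The largest value among them was that of GLR3.3, a channel needed for the spread of wound signals, at 0.57 (adjusted p = 0.0132). It read 5.54, 5.38 and 5.32 in the controls and 5.73, 5.78 and 6.43 after MeJA. Ca2+-dependent kinases, calmodulins and CBL sensors had no probe set that names 1 of them alone.

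Cell wall genes rose and fell. CSLA01, a cellulose synthase-like protein of the mannan synthase group, read 3.39, 3.67 and 3.44 in the controls and 9.04, 9.23 and 8.62 after MeJA (5.46, SE 0.18, adjusted p = 1.92e-16). TBL26, of a family that acetylates wall polymers, rose from 4.45, 4.74 and 4.46 to 8.62, 9.39 and 9.15 (4.50). Of the 23 TBL genes measured, 2 were called higher and 1 lower (8.70% and 4.35%, against 2.42% each way over everything tested). TBL37 rose by 1.66, and TBL36 went from 8.54, 8.66 and 8.79 to 7.40, 6.87 and 7.43 (-1.43). Of class III peroxidases, which cross-link walls with hydrogen peroxide, only the 6 that the annotation names as numbered peroxidases were counted, so genes of the family listed under a locus number alone are not in the count. Of these 6, 2 were called higher and 1 lower (33.3% and 16.7%). Peroxidase 25 (AT2G41480) rose from 3.98, 4.38 and 5.08 to 8.23, 7.94 and 8.31 (3.68). Prx37 rose by 1.68. The peroxidase gene AT5G64120 fell from 7.69, 6.92 and 7.41 to 4.89, 5.50 and 5.87 (-1.92, adjusted p = 0.00731), and without line 1 the adjusted p was 0.123. The subtilase SBT4.12, a secreted protease, rose from 7.11, 6.67 and 6.82 to 9.43, 9.65 and 10.11 (2.86).

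Of 19 expansins, proteins that let walls extend, 0 were called higher and 2 lower (10.5%, against 2.42% of everything tested), with a median of -0.27 and 8 positive values. The largest of these was that of EXPA9 (0.85, adjusted p = 0.00120), under 2-fold. EXLA1, an expansin-like gene, read 8.02, 7.18 and 7.71 in the controls and 5.00, 6.07 and 5.24 after MeJA (-2.19, SE 0.29, adjusted p = 6.58e-06). EXPA8 read 7.78, 8.15 and 8.45 against 7.28, 6.33 and 7.15 (-1.20), and without line 7 it had -0.90 (adjusted p = 0.0766). None of 10 xyloglucan endotransglucosylases was called by limma, with XTH19 at -0.94 (adjusted p = 0.0121) and a call without line 1 (-1.13). Growth genes outside these lists, chosen after their values were seen, included EXO, a gene of brassinosteroid-driven growth, at 9.39, 9.37 and 9.50 in the controls and 7.34, 7.67 and 7.30 after MeJA (-1.98). The endoglucanase GH9B13 read 7.09, 7.01 and 6.73 against 4.94, 5.12 and 4.98 (-1.93). SP1L2 and SP1L5, of the SPIRAL1-like family that acts on cortical microtubules, had -1.50 and -1.52. In all of these the treated arrays lay below all controls, as for 18.9% of everything tested and 535 of the 546 lowered genes.

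Many of the largest falls were of genes without a name in the annotation used here. AT3G06070 read 7.37, 7.76 and 7.97 in the controls and 4.78, 3.59 and 4.70 after MeJA (-3.35, SE 0.30, adjusted p = 1.59e-08). AT5G64100 fell from 8.45, 8.08 and 8.12 to 5.55, 5.50 and 5.12 (-2.83). AT3G15450, an aluminium-induced protein with YGL and LRDR motifs, was among the brightest of the lowered genes, at 10.81, 10.55 and 10.59 against 7.89, 7.93 and 8.74 (-2.46). AT4G27450, annotated with the same motifs, fell by 2.22. AT4G12490, a lipid transfer protein of the AZI family, read 8.73, 8.28 and 8.79 against 6.45, 5.10 and 6.65. Its value of -2.53 passed with an adjusted p of 0.0183, which was 0.0730, 0.115 and 0.0613 without lines 1, 7 and 11, so the call was not stable. AKINBETA1, a subunit of the SnRK1 kinase that responds to low energy, was chosen after its values were seen and fell from 8.23, 7.97 and 8.12 to 5.61, 6.22 and 6.49 (-2.0). The autophagy gene ATG8E, chosen likewise, fell from 7.65, 7.89 and 8.02 to 6.63, 6.53 and 6.94 (-1.15).

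The WRKY, bHLH, ERF and NAC lists had 0 members called higher and 3 called lower. The ERF and NAC lists had only 1 measured member each, ORA47 (0.38) and NAC014 (-0.70), so these 2 families were hardly covered. Of 7 WRKY factors 0 were called higher and 2 lower (28.6%, against 2.42% of everything tested). WRKY53, a regulator of leaf senescence, read 5.31, 5.37 and 5.59 in the controls and 3.70, 4.29 and 3.23 after MeJA (-1.68, adjusted p = 0.00163). WRKY22, a factor of pathogen responses, read 5.96, 6.11 and 6.20 against 4.51, 4.40 and 5.07 (-1.43). Of 7 bHLH factors 1 was called (14.3%), BHLH101, which acts in iron deficiency. It went from 6.37, 6.84 and 6.80 to 5.17, 4.55 and 5.78 (-1.50). It had an adjusted p of 0.164 without line 7. DEWAX (AT5G61590), a repressor of cuticular wax genes, outside the lists and named after its values were seen, fell by 2.01. FACT, which esterifies fatty alcohols with caffeic acid for root waxes and was named likewise, read 6.96, 7.09 and 7.38 against 5.77, 5.33 and 5.20 (-1.71). The glutaredoxin GRX480, a redox regulator of the balance between defence pathways, was also named after its values were seen and rose from 4.65, 4.64 and 4.75 to 7.26, 7.33 and 7.26 (2.60). Its lines agreed closely under both treatments.

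Most measured genes of photosynthesis and of the plastid genome had negative values, the greater part of them under 2-fold. The plastid genome list also holds genes outside photosynthesis, such as rps15 and rpl16 for ribosomal proteins. Of 69 genes of the plastid genome, 0 were called higher and 8 lower (11.6%, against 2.42% of everything tested), 59 had negative values and the median was -0.31. On the positive side psbK, of photosystem II, had 0.82 (adjusted p = 0.0244), and petG, of the cytochrome b6f complex, had 0.97 (adjusted p = 0.0562) and was called higher without line 7 (1.42, adjusted p = 0.0235). psbD, which encodes the D2 protein of the photosystem II reaction centre, read 8.05, 7.87 and 7.60 in the controls and 5.76, 6.32 and 5.64 after MeJA (-1.94, SE 0.32, adjusted p = 7.44e-05). The core antenna genes psbB and psbC had -1.58 and -1.41, and ndhE, of the chloroplast NADH dehydrogenase-like complex, had -1.47. psbT and rpl16 lost their calls without line 7 (adjusted p = 0.124 for psbT, a log2 fold change of -0.83 for rpl16), and psbT also without line 11 (0.0944). Among nuclear genes, LHCB4.3, a minor light-harvesting protein, fell from 7.94, 8.28 and 7.73 to 6.07, 7.13 and 6.21 (-1.51). Its sisters LHCB4.1 and LHCB4.2 had -0.34 and -0.12. None of 5 Calvin cycle and photorespiration genes, 4 nucleus-encoded photosystem subunits and 3 chlorophyll synthesis genes was called by limma, and all 12 had negative values. SBPASE, sedoheptulose bisphosphatase, gave -0.42 (adjusted p = 0.00545), from 11.37, 11.30 and 11.32 to 10.84, 10.97 and 10.91, a fall under 2-fold that exceeded the spread between lines.

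Some genes were already bright and still changed. Among raised genes with the highest controls, AT3G28220, of the TRAF-like family, read 9.44, 9.64 and 9.36 and reached 11.72, 11.86 and 11.89 (2.35). PMEAMT, a methyltransferase of phosphocholine synthesis, went from 10.03, 9.91 and 9.88 to 11.08, 10.94 and 10.93 (1.05, and 0.999 without the MeJA array of line 1, under 2-fold). Among lowered genes with bright controls AT4G16980 had -1.16, AT2G10940 -1.32 and AT5G48490 -1.15. Each was lower with no overlap between treated and control arrays, as was 18.9% of everything tested.

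Among the called genes the 3 lines mostly changed in the same direction. The call itself favours this, since it rests on the same lines. Of the 547 raised genes 546 were higher after MeJA in every line, and 539 of the 546 lowered genes were lower in every line. Line by line, 376 raised and 246 lowered genes passed 2-fold in all 3. The median rise of the raised genes was 1.84 in line 1, 1.56 in line 7 and 1.65 in line 11, and line 1 had the largest rise for 302 of them. Across all genes, which are not independent replicates, the line differences correlated with r of 0.673 between lines 1 and 7, 0.80 between 1 and 11 and 0.802 between 7 and 11.

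A small set of raised genes responded unevenly. The 3 lines differed by more than 2 units in 31 raised genes, and line 7 rose least in 25 of these, line 1 in 4 and line 11 in 2. AT1G66860 read 1.94, 1.97 and 2.04 in the controls and 7.21, 3.86 and 6.69 after MeJA. Line 7 was thus raised, but about 3 units less than the others. AT5G35940 read 2.72, 2.83 and 2.65 against 9.45, 7.14 and 9.06, and AT5G23840, with an MD-2-related lipid recognition domain, 4.05, 4.33 and 4.81 against 10.88, 8.81 and 10.74. AT5G04120 and AT3G05950 had the same order of lines after MeJA, at 9.87, 7.35 and 8.98 and at 7.45, 4.88 and 6.94. In AT5G43590 the treated arrays read 5.21, 2.55 and 3.43, and without line 1 its log2 fold change of 1.71 became 0.89, under 2-fold. Of the cell type markers, the root hair expansin EXPA18 was also lowest in line 7 after MeJA, at 4.91 against 6.92 and 5.92 in lines 1 and 11 and 5.29 to 5.46 in the controls. EXPA7, the other measured root marker, read 5.34, 4.48 and 5.17 against 4.79 to 5.08. Neither was called by limma (0.56 and 0.03), and EXPA18 was called without the MeJA array of line 7 (1.07, adjusted p = 0.0308). Whether root content had a part in the uneven genes was not tested. Markers of seed, pollen and trichomes (PAP85, AT5G45880 and TRY, 1 gene each) and of the guard cell lineage (SPCH, MUTE and FMA) had 0 called, with values between -0.51 and 0.28.

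**Figure D4:**
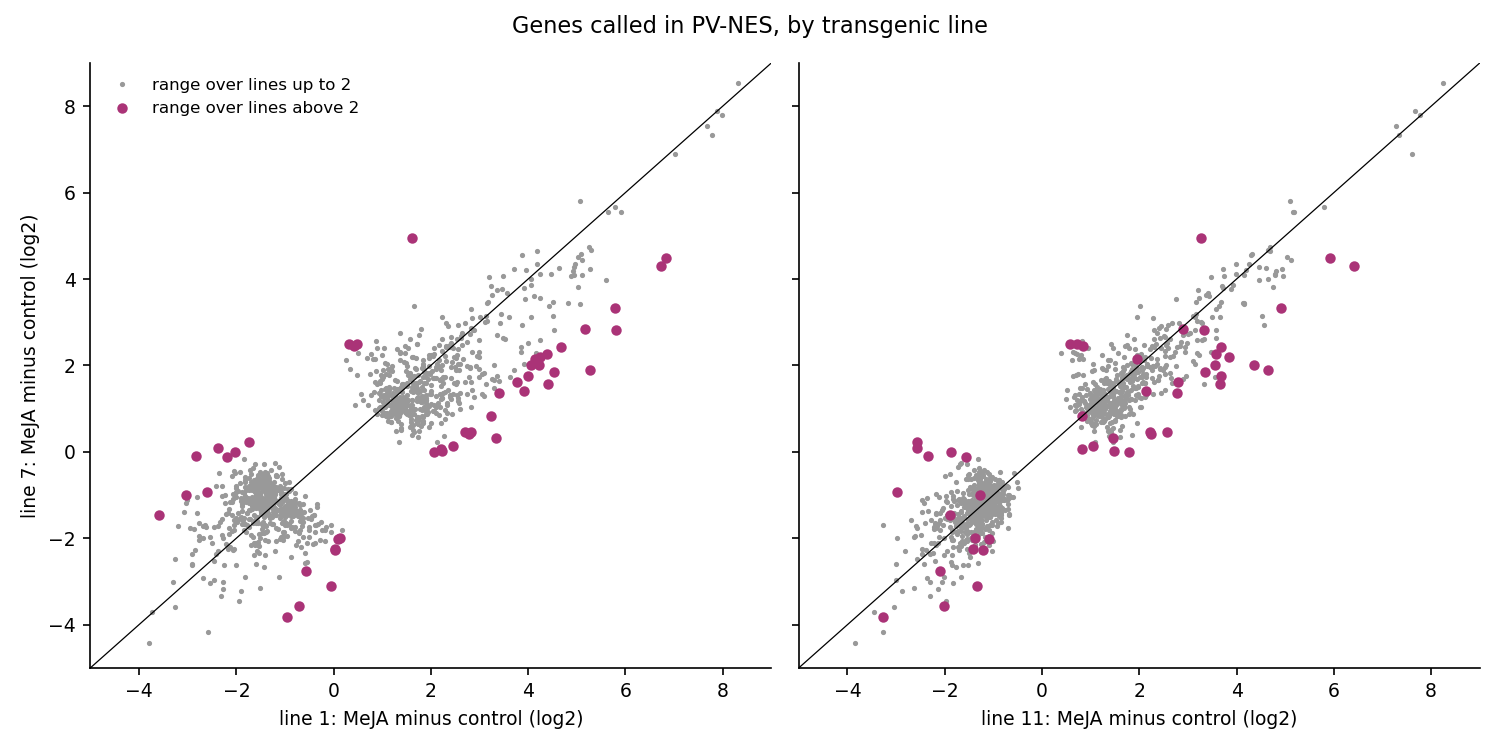
MeJA minus control in line 7 (vertical axes, log2) against the same difference in line 1 and in line 11 (horizontal axes) for the genes called in PV-NES. Diagonal lines mark equal change, and purple points are the 31 raised and 16 lowered genes whose lines differ by more than 2 units, many of them raised genes below the diagonal, where line 7 rose least.

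The MeJA response of PV-NES was set beside those of WT and PV-NLS, which have their own controls. In WT 652 genes were called higher (2.89%) and 491 lower (2.17%), and in PV-NLS 660 (2.92%) and 601 (2.66%). Of the 547 genes raised in PV-NES, 457 were also raised in WT and 485 in PV-NLS, with 432 raised in all 3 genotypes. Of the 546 lowered, 285 were lowered in WT, 388 in PV-NLS and 239 in all 3. No gene was called in opposite directions, and 545 of the raised and 538 of the lowered genes had the same sign in WT. Genes called in PV-NES and in neither other genotype numbered 37 raised and 112 lowered, for instance AR781 with 1.18 in PV-NES, 0.24 in WT and 0.63 in PV-NLS, and CSLA03 with -1.02, -0.19 and -0.75. AR781 and CSLA03 were chosen after their values were seen, and CSLA03 was at -0.93 without line 7. Such a count does not show a difference between genotypes, which needs the test of the difference itself.

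That test, an interaction between genotype and treatment, called 0 genes against WT (0.00%) and 0 against PV-NLS (0.00%) with limma. The smallest adjusted p was 0.102 against WT and 0.861 against PV-NLS. At an unadjusted p under 0.05 and a difference above 2-fold there were 139 genes against WT, 39 of them called in PV-NES, and 33 against PV-NLS, 11 of them called. WT has a single MeJA array and its spread was taken from the other groups, so that the median standard error of a difference was 0.248 against WT and 0.195 against PV-NLS. Differences over 2-fold could therefore be missed for genes of ordinary variance too, and larger ones for genes of high variance. ALC, for instance, differed from WT by more than 2-fold with all arrays and was not called (adjusted p = 0.102 with limma). The 0 calls thus do not show that the responses were equal.

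For the named genes called in PV-NES or WT with the widest gaps, intervals are given. They were computed for each gene alone, with no allowance for this choice or for the number of genes tested. Gaps picked as the widest tend to be overstated, so an interval without 0 does not show a difference here. BGLU28 rose by 2.57 in PV-NES and had 0.74 in WT, a difference of 1.82 (95% interval 0.45 to 3.20, adjusted p = 0.780). AT5G40450, an A-kinase anchor-like protein, read 5.04, 4.71 and 4.68 in PV-NES controls and 3.57, 3.27 and 3.71 after MeJA. Its fall of 1.30 stood beside 0.69 in WT, a difference of -1.98 (-3.0 to -0.97, adjusted p = 0.505), and -1.37 in PV-NLS. AT5G52280 had -1.17 beside 0.68 in WT and -1.10 in PV-NLS, a difference from WT of -1.85 (-3.02 to -0.69, adjusted p = 0.650), and lost its call in PV-NES without line 7 (adjusted p = 0.0692). AT4G07820, of the CAP superfamily, read 6.16, 6.24 and 6.32 against 7.75, 4.90 and 8.19. Lines 1 and 11 rose and line 7 fell, so its 0.71 was not called, became 1.74 (adjusted p = 0.00306) without line 7, and differed from the 3.18 of WT by -2.47 (-4.43 to -0.52, adjusted p = 0.814). Narrower gaps were those of AT2G44380 (-2.21 against -0.77 in WT, a difference of -1.44 with an interval of -2.36 to -0.52, adjusted p = 0.650) and BGLU46 (1.23 against 2.42, a difference of -1.19, adjusted p = 0.749). JRG21, with 1 of the strongest responses, differed by 0.78 (-0.17 to 1.73, adjusted p = 0.890).

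Against PV-NLS the widest gaps of genes named here were those of the defensins PDF1.2b and PDF1.2, which were called in neither genotype. The intervals carry the same limit as those against WT. The response of PDF1.2b was 1.78 in PV-NES against -1.42 for PV-NLS, a difference of 3.20 (95% interval 0.70 to 5.70, adjusted p = 0.861). PDF1.2 had 1.82 and -0.56, a difference of 2.38 (-0.33 to 5.09, adjusted p = 0.909). The other genes were called in at least 1 of the genotypes. UGT76E12 read 2.83, 2.11 and 2.49 in PV-NES controls and 3.59, 4.36 and 3.22 after MeJA, a rise of 1.25 against 3.03 in PV-NLS. The difference was -1.78 (-2.56 to -1.01, adjusted p = 0.861). Without line 7 the PV-NES rise fell under the thresholds (0.74, adjusted p = 0.0685) and the difference was -2.29 with an adjusted p of 0.0492, so line 7 decides that call. AT5G52760 had 0.45 against -1.44 in PV-NLS, with 5.04 in the treated line 7 against 1.95 and 2.03 in lines 1 and 11. AT4G10270, of the wound-responsive family, had -0.60 against -2.38, and AT1G49200, a RING-H2 gene, -1.11 (-0.94 without line 7) against -2.46. TBL26 rose by 4.50 in PV-NES and 3.50 in PV-NLS, a difference of 1.00 (0.19 to 1.82, adjusted p = 0.861). None of these differences passed the threshold with all arrays.

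**Figure D5:**
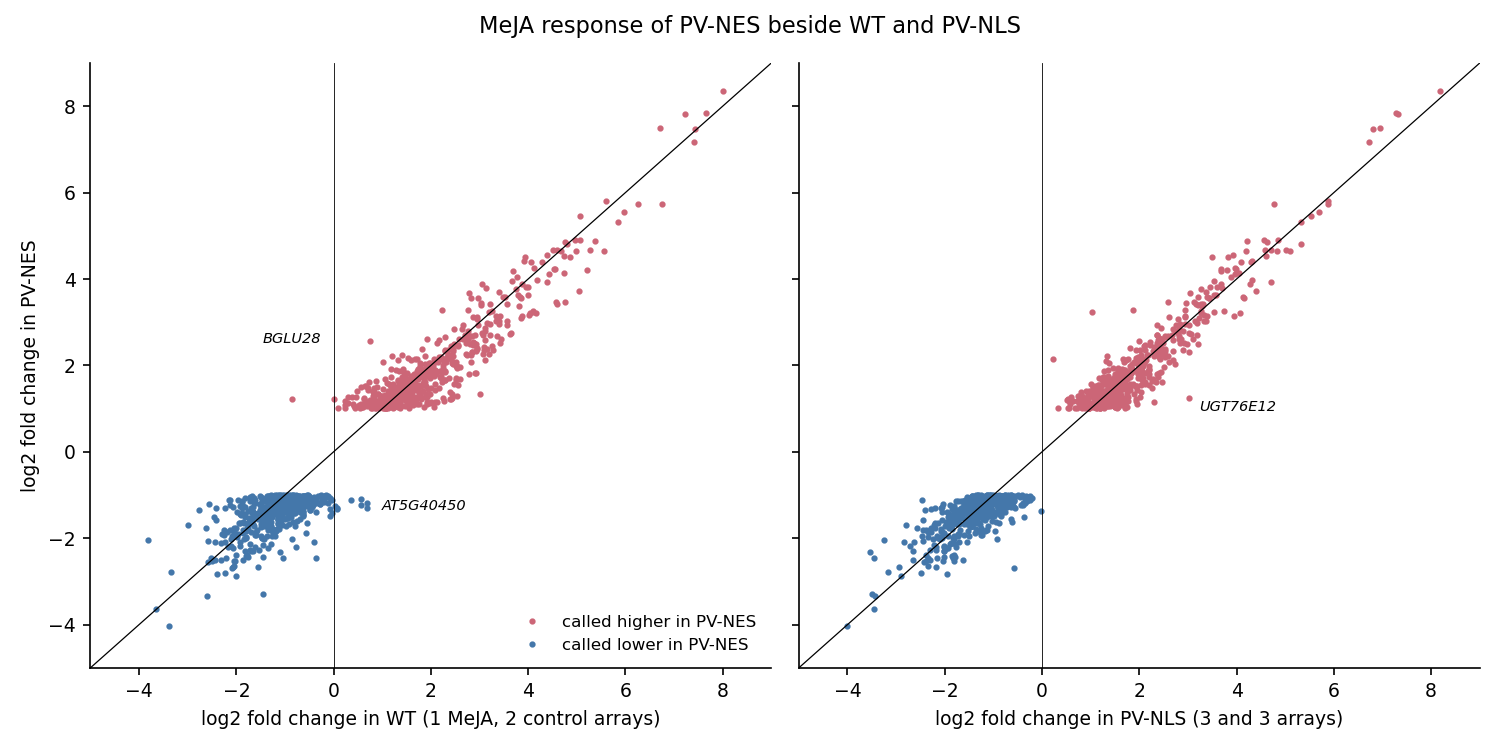
Log2 fold change of MeJA over control in PV-NES (vertical axes) against that in WT (left) and PV-NLS (right) for the 547 genes called higher (red) and the 546 called lower (blue) in PV-NES. Diagonal lines mark equal response, and nearly all points share their sign, with the named genes BGLU28, AT5G40450 and UGT76E12 among those farthest from the line.

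Beside the other 2 hormones given to the same lines, most of the 15 genes with the largest MeJA rises had smaller values, under 2-fold. THI2.1 had 0.51 after ABA (adjusted p = 0.187) and -0.06 after ACC, and scpl30 -0.20 and 0.02. JRG21 had 0.81 after ABA (adjusted p = 0.0404) and 0.03 after ACC. Changes under 2-fold with an adjusted p under 0.05 were also those of TBL26 (0.94, 0.0291) and CSLA01 (0.55, 0.0470) after ABA and AT4G17470 (-0.82, 0.0249) after ACC. AT5G19890 was an exception, with 4.64 after MeJA, -0.35 after ABA and 5.43 after ACC (adjusted p = 8.65e-11). AT3G28270 had 4.55 after MeJA, 2.35 after ABA and -0.49 after ACC. DFR, raised by MeJA, had 0.31 after ABA and -2.14 after ACC. Prx37 had 1.68 after MeJA, -0.78 after ABA and 2.08 after ACC. The 3 comparisons use the same 3 PV-NES control arrays, so their values are not independent.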

How the data were processed

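Seedling RNA of 29 samples was hybridised to Affymetrix ATH1 arrays. The values are log2 signals per probe set that the authors deposited after normalisation with RMA, which corrects background, equalises the distributions of all arrays and summarises probes. Base 2 was read from their range. The table has 22810 probe sets, 64 of them array controls that were dropped. Of the rest, 13513 named 1 gene, 503 several and 8730 none in the platform annotation used here (13436 of the named ones matched RefSeq TAIR10.1 names). A gene with several probe sets was represented by the brightest. Group means were fitted with limma 3.58.1 (lmFit and eBayes) in R 4.3.3, 1 variance per gene over 12 groups (17 residual and 5.94 prior degrees of freedom), with Benjamini-Hochberg adjustment over 22588 entries. P-values rest on the spread within groups, pooled over genotypes and treatments, not on that of the PV-NES arrays alone. In the transgenic groups this is the spread between lines, and in WT that between the control arrays. The number of arrays limits precision. The fit was tested on simulated data.

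The members, lists and tests were chosen with earlier results of these data known. The rule names the 15 largest changes each way without overlap, up to 6 called and 3 other members per list, the 4 genes whose lines differ most, the 4 that differ most from WT and from PV-NLS, and the 4 with the brightest controls each way. Peroxidases, TBL genes, carboxypeptidase-like proteins, subtilases, thionins and defensins, methionine sulfoxide reductases and the plastid genome were added as families after the data were seen.

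The labels give the same 3 lines under both treatments, which pairs the arrays. After group means were subtracted, control and MeJA arrays of lines 1, 7 and 11 correlated with r of -0.242, -0.028 and 0.084. The methods name no block, so it is an alternative. Other alternatives were the 6 arrays alone, the methods' t-test, a fold threshold inside the test (treat), a filter on dim probe sets, other scaling, all probe sets apart, a variance trend and leaving out lines or arrays. Promoter and protein sequences were not analysed here.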

Additional observations from a re-analysis of the deposited data

How the results depend on the processing

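The counts of 547 raised and 546 lowered genes stayed within 1.5 times under most alternatives. A fold threshold inside the test (treat) left 229 and 65, a filter on dim probe sets left 343 raised (430 lowered) of fewer genes tested, and the methods' t-test left 324 lowered (396 raised) after Benjamini-Hochberg, or 535 and 523 at its unadjusted p, the last chosen after seeing the data. With the transgenic line as a replicate block the counts were 547 and 546, and 189 of 189 named genes kept their call. Leaving out lines or arrays gave 528 to 609 raised and 496 to 628 lowered genes. Of 516 called named genes, 341 were called in all 9 leave-outs, and 53 of 241 raised and 122 of 275 lowered genes lost their call in at least 1. No named gene changed sign with a call. Median centring moved the median log2 fold change of all genes from 0.03 to 0.07 and gave 592 and 477. The interaction with WT called 0 genes in the fit with all arrays and 0 to 9 in the leave-outs, with 9 without the second WT control (among them ALC and AT5G62340) and 1 each without the first WT control or the MeJA array of line 1. The interaction with PV-NLS called 0 to 2, with 1 without line 7 (UGT76E12) and 2 without its MeJA array (UGT76E12 and AT4G37850). With the replicate block both interactions called 0. Low signal limits the size of folds from dim controls.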

Other observations

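Raised genes often lay near each other in the gene order of the genome (RefSeq order, no distances used, chosen after the data were seen). Of 235 raised genes with another measured gene within 3 genes, 52 (22.1%) had a raised gene there, beside 5.42% of all 11867 genes with a measured neighbour. For lowered genes it was 25 of 259 (9.65%) beside 6.02%. UGT71B5 (1.88) lay next to AT4G15270 (1.61), BGLU24 (2.66) next to AT5G28520 (2.58), MSRB5 next to MSRB6, and JAL23 (7.48) 2 genes from JAL22 (1.15). On the lower side AT4G12490 lay 2 genes from AT4G12500 (-1.83), also a lipid transfer protein, whose call was lost in each of the 9 leave-outs. The pairs AT1G33590 and AT1G33600 had -1.12 and -1.19. THI2.1 (8.36) stood 3 genes from AT1G72230, which fell by 1.41, so neighbours did not always move together. Members of such clusters are often copies of each other, their probes may respond to each other, and this was not tested.

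Further called genes, chosen after their values were seen, act in transport, sulphur metabolism, flowering and cold responses. SWEET16, a vacuolar sugar transporter, rose from 5.58, 5.49 and 5.76 to 7.40, 6.64 and 7.33 (1.51). STR18, a sulfurtransferase, rose from 5.82, 6.29 and 6.78 to 8.37, 7.54 and 8.12 (1.71). TAAC, an ATP carrier of thylakoids, rose by 1.33 and the copper amine oxidase CuAO1 by 1.44. SMZ, a repressor of flowering, rose by 1.52. The dehydrin COR47 fell from 10.04, 9.77 and 9.98 to 9.02, 8.18 and 8.54 (-1.35), and SRC2, a gene named for its regulation by cold in soybean, from 10.16, 9.91 and 10.12 to 8.29, 8.78 and 8.15 (-1.66). COR47 had 0.90 after ABA in the same lines, on shared controls.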
